A study of Rattus norvegicus with 2 samples.

Results

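Transcripts of 10 endothelial and capillary genes were examined in RNA labelled as heart, in a cocaine sample and a control sample of rats. The genes were taken from a list of symbols (Pecam1, Cdh5, Vwf, Cldn5, Tek, Kdr, Ednrb, Car4, Ace and Nos3), and a gene entered the comparison when a probe set, the group of probes that reports a transcript, carried its symbol as the single gene of the platform annotation. This was so for 8 of the 10 genes, each with 1 probe set, out of 15037 named genes on the array. The endothelin B receptor gene Ednrb and the angiotensin-converting enzyme gene Ace had no such probe set and are not analysed here. The rats were male SD (Sprague Dawley) animals aged 8 weeks, and the tissue of both samples is labelled left ventricle. Cocaine was injected in the tail vein at 20 mg/kg daily over 14 days. The control sample is labelled as having had no treatment, whereas the study's methods describe saline given to control rats on the same schedule. Total RNA of each sample was hybridized to 1 Clariom S array, so that 2 arrays were compared, 1 per condition. The study kept several rats per group, and whether an array held RNA of 1 rat or of several is not given in the sources used here. SDs and p-values are therefore not given, and the differences are those of these 2 arrays.

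The markers went in part against the label of the tissue. Intensities, in arbitrary units, were high for lung epithelium genes: the surfactant gene Sftpc had the highest value of either array, and the alveolar gene Ager stood at 310685 with cocaine and 308175 in the control. All 13 measured lung epithelium markers exceeded the background limit defined below in both samples. Of 18 cardiomyocyte markers only 7 did so, and some of these were bright. The myosin light chain gene Myl2 stood at 6344 with cocaine and 7778 in the control, and the cardiac actin gene Actc1 at 5276 and 1842. The calcium pump gene Atp2a2, which is not confined to heart muscle, had 28671 and 18344. The myosin heavy chain gene Myh7 stood at 31.9 and 29.0 and the cardiac factor gene Nkx2-5 at 21.4 and 16.9, under the limit in both samples. The myosin gene Myh6, which the study lists among the genes most upregulated by cocaine, was not among the 18 markers. The genes are therefore described here as endothelial genes of RNA labelled left ventricle in which lung epithelium markers were bright.

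Endothelial cells line all blood vessels. They hold to each other through adherens and tight junctions, receive growth and survival signals through VEGF and angiopoietin receptors, and make nitric oxide, which relaxes the smooth muscle around them. In the alveolar wall of the lung, and between the muscle cells of the heart, they form dense capillary networks. Most of the genes named here are used by the endothelium of many organs, so their presence does not tell from which organ an RNA came.

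Of the 8 measured genes, 7 were bright on both arrays and only Nos3 was dim. Each value is a linear intensity, in arbitrary units, that the authors had normalized before deposit. As a stand-in for background, a limit was taken from 1155 olfactory and vomeronasal receptors, genes of sensory neurons in the nose, at their 95th percentile. It was 64.1 for the cocaine sample and 71.5 for the control, and all 8 genes exceeded it in both. When the named genes were divided by mean log2 intensity into 4 equal classes, the 7 bright genes all fell in the brightest class, at or above percentile 90.5 of all named genes on each array. Probe sets bind with different strength, so the brightness of different genes is not an order of their transcript numbers. In bulk tissue, moreover, a change in the number of endothelial cells and a change in RNA per cell cannot be told apart.

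The first group of genes builds the contact between endothelial cells. Cdh5, on chromosome 19, encodes VE-cadherin, the adhesion protein of endothelial adherens junctions. Its intensity was 223303 with cocaine and 239076 in the control, a 1.07-fold lower value with cocaine and a log2 ratio of -0.10. It was the only measured gene of the 8 that was lower with cocaine. Cldn5, on chromosome 11, encodes claudin-5, a main component of endothelial tight junctions. It stood at 44387 with cocaine and 42815 in the control, a log2 ratio of 0.05. Pecam1, on chromosome 10, encodes the adhesion molecule CD31 of endothelial cell borders, which platelets and leukocytes also carry. It was brighter with cocaine, at 11205 against 8115, which is 1.38-fold and a log2 ratio of 0.47. The 3 junction genes thus differed unequally, since Cdh5 and Cldn5 were within 1.1-fold of equality between the arrays and Pecam1 was not.

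The next genes carry signals and clotting functions. Kdr, on chromosome 14, encodes VEGF receptor 2, the main receptor by which VEGF-A acts on endothelium. Its intensity was 65268 with cocaine and 61471 in the control, a log2 ratio of 0.09. Tek, on chromosome 5, encodes TIE2, the receptor of the angiopoietins. It stood at 47481 and 43752, a log2 ratio of 0.12. Neither receptor differed by as much as 1.1-fold. Vwf, on chromosome 4, encodes von Willebrand factor, a clotting protein stored by endothelial cells and platelets. It was 1.22-fold brighter with cocaine, at 11860 against 9757, with a log2 ratio of 0.28.

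The last group is made of enzymes. Car4, on chromosome 10, encodes a carbonic anhydrase anchored to the outer face of capillary endothelium, where it speeds the exchange between bicarbonate and carbon dioxide. Its intensity was 8133 with cocaine and 5801 in the control, 1.40-fold higher with cocaine and a log2 ratio of 0.49. Nos3, on chromosome 4, encodes the endothelial nitric oxide synthase. It stood at 152.0 against 102.7, which is 1.48-fold and a log2 ratio of 0.57. The Nos3 ratio was the largest of the 8, but its intensity was only 2.37 times the background limit on the cocaine array and 1.44 times on the control array.

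**Figure D1:**
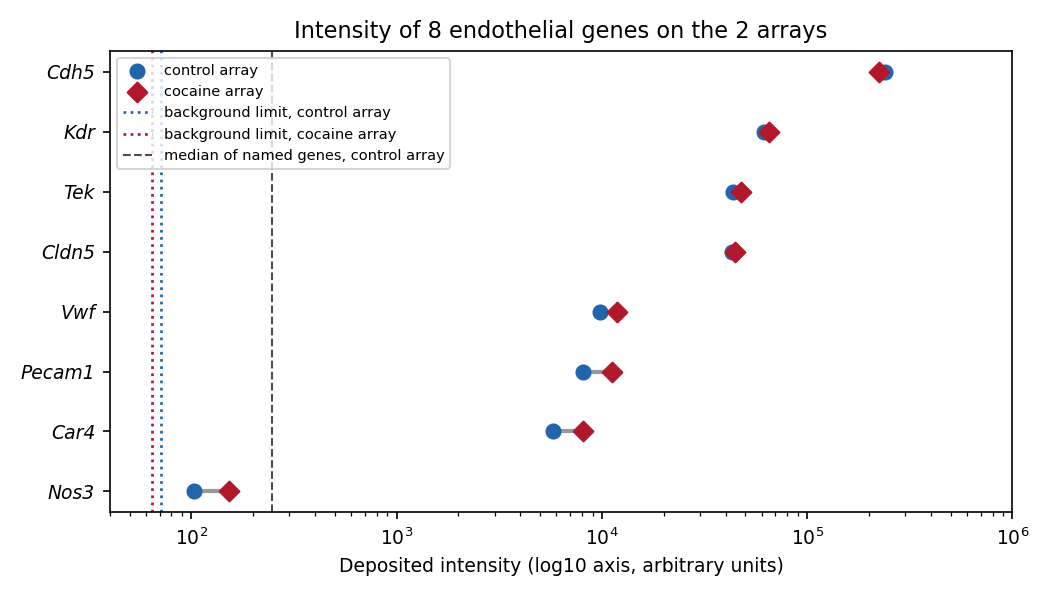
Deposited intensity (log10 axis, arbitrary units) of the 8 measured genes on the control array (circles) and the cocaine array (diamonds), with the background limit of each array as a dotted line and the median of the named genes of the control array as a dashed line. The symbols of Cdh5, Kdr, Tek and Cldn5 nearly coincide, those of Vwf, Pecam1, Car4 and Nos3 stand apart with the cocaine array higher, and Nos3 alone lies left of the dashed line.

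Values were higher with cocaine for 7 of the 8 genes and lower for 1. The share of genes with higher values was 52.4% over all named genes and 62.4% over the 3759 genes of the brightest class, so a small upward difference was the more common state of bright genes. With a floor at the 25th percentile or at the background limit, the share over all named genes was 42.2% or 38.8%. These shares cannot be set against the 8 genes, all of which lay above both floors and kept their ratios. Genes under the floor on both arrays took a log2 ratio of -0.10 at the 25th percentile and became ties at the background limit. None of the 8 genes differed by 1.5-fold, which 4.63% of named genes did upward and 4.95% downward, and none was raised by 2-fold, which 0.698% of named genes were. At a lower threshold, a log2 ratio of 0.32, 3 genes passed upward (Nos3, Car4 and Pecam1) and 0 downward. Of all named genes 17.6% passed it upward and 16% downward, and of the brightest class 16.9% passed it upward. The median log2 ratio of the 8 genes was 0.20, a 1.15-fold difference, beside a median of 0.02 over all named genes and 0.08 over the brightest class.

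With no replicates, the spread of the ratios over genes of like brightness was the available scale, and it holds technical and biological differences together. The middle 95% of the brightest class ran from a log2 ratio of -0.47 to 0.59, and all 7 members of that class lay inside it. Of the genes of that class 5.59% had a higher ratio than Car4, 6.52% a higher ratio than Pecam1 and 21.1% a higher ratio than Vwf. The ratios of Tek, Kdr and Cldn5 lay near the middle of the class, with 43.2%, 48.5% and 54.0% of its genes above them, whereas 75.9% were above Cdh5. Nos3 belonged to the second dimmest class, whose middle 95% ran from -0.80 to 0.77, and 6.52% of the genes there had a higher ratio. Thus no gene of the 8 stood outside the range that most genes of its brightness showed between these arrays.

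**Figure D2:**
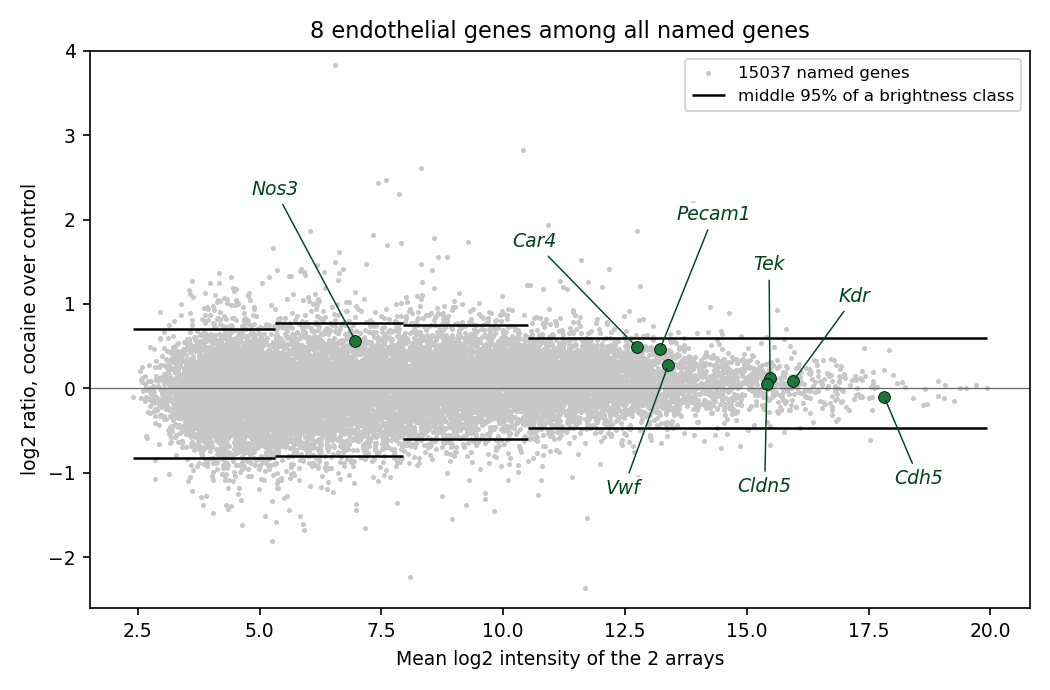
The log2 ratio of cocaine over control against the mean log2 intensity of the 2 arrays for the named genes (grey) and the 8 measured endothelial genes (green). Black lines enclose the middle 95% of the ratios in each class of brightness, and all 8 genes lie between them, Nos3 among dim genes and the other 7 among the brightest.

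The ratios kept their sign under all 6 other ways of scaling the arrays or of treating low values and several probe sets per gene. The smallest was that of Cldn5, with a log2 ratio of 0.0049 after a loess fit of the ratio on the mean level. Over these settings Pecam1 ran from 0.39 to 0.47, Car4 from 0.41 to 0.49, Vwf from 0.21 to 0.28 and Nos3 from 0.55 to 0.58. None of the 8 genes reached 1.5-fold in any of them. The floors and the highest probe set could not change these ratios, since all 8 genes lay above both floors and had 1 probe set each. Only median centring, quantile normalization and loess could.

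**Figure D3:**
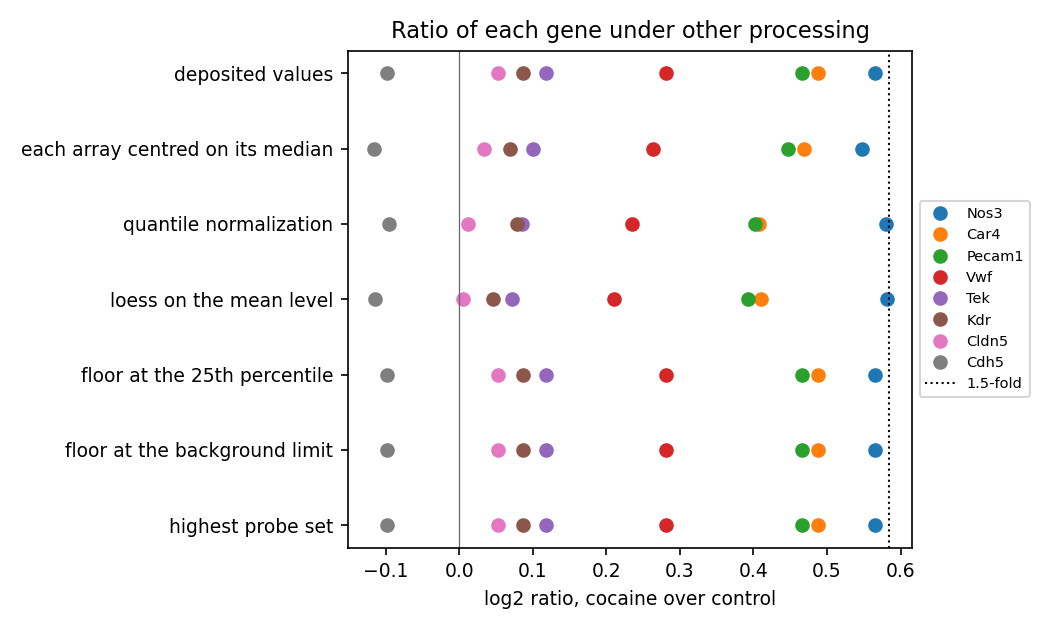
The log2 ratio of cocaine over control of each measured gene (coloured points) with the deposited values and under 6 other settings, with 1.5-fold as a dotted line. Cdh5 stays left of zero and the other 7 genes right of it in every setting, and Nos3 comes closest to the dotted line, at 0.58.

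Promoter sequence was available for 4 of the measured genes, in the RefSeq table of the GRCr8 assembly, and is shown because these genes include both the widest differences (Nos3 and Car4) and the narrowest (Kdr and Cldn5). Each run is the 250 bases before the annotated start, 5′ to 3′ in the direction of the gene, with matches to any of 6 short motifs in capitals. Nos3 lies on the minus strand at chr4:11706582-11706831, Car4 on the plus strand at chr10:70325108-70325357, Kdr on the plus strand at chr14:32571813-32572062 and Cldn5 on the minus strand at chr11:95718599-95718848.
Nos3: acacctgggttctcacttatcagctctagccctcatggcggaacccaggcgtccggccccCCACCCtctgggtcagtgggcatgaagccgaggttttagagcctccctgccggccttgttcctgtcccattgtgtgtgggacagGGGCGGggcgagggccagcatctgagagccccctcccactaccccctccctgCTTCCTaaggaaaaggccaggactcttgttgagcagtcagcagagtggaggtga
Car4: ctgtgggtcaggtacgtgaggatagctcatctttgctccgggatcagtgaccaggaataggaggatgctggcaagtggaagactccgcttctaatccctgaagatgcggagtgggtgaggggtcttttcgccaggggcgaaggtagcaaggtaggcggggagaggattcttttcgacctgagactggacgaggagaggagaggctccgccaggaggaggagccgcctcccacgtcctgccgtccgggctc
Kdr: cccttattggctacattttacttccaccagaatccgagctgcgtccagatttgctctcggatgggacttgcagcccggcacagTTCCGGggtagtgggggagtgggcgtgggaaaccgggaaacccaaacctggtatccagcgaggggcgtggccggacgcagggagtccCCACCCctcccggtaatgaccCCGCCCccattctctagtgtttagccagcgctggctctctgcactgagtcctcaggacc
Cldn5: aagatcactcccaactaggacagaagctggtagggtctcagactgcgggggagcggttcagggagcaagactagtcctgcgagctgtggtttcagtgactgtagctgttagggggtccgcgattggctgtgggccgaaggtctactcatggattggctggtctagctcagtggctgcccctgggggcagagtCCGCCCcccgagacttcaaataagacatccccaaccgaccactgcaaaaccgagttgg

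The motifs were the ETS cores CCGGAA and AGGAAG, bound by the family of the endothelial factors Erg and Fli1, the GC box GGGCGG, the KLF box CCACCC, the TATA box TATAAA and the GATA site AGATAA, each searched on both strands with overlaps counted. A GC box stood 106 bases before the start of Nos3, 59 before that of Kdr and 58 before that of Cldn5, and 30.5% of all 33469 promoters of the same length held one. Nos3 also held 1 AGGAAG core at 54 bases (29.5% of all promoters) and 1 KLF box at 190 bases (26.1%). Kdr held 1 CCGGAA core at 167 bases (12.6%) and 1 KLF box at 80 bases. The Car4 window held none of the 6 motifs. TATA boxes, found in 12.9% of all promoters, and GATA sites, found in 10.3%, were absent from all 4 windows. No motif was thus shared by Nos3 and Car4, the genes with the largest ratios of these 4. A match of 6 letters is a description of the sequence and not a binding site.

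The partners of these genes were described with 9 lists of 89 measured genes in all, of which 71 exceeded the background limit in both samples. Of the 89 genes, 47 had higher and 42 lower values with cocaine (median log2 ratio 0.03) against 0.02 over all named genes, and with other scalings or floors 38 to 47 were higher with medians from -0.0077 to 0.03. At least 1.5-fold differences, with the brighter value above the limit, were seen in 6 genes upward (Jam3, Ddah2, Gch1, Edn1, Procr and Ets2) and in 1 downward (Car6). By the same rule, 3.38% of all named genes were called upward and 2.43% downward. Ddah2 and Edn1 were no longer past 1.5-fold after quantile normalization or loess.

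Among 14 junction and adhesion partners of Cdh5, Cldn5 and Pecam1, 8 had higher and 6 lower values (median log2 ratio 0.07). Jam3, a junctional adhesion molecule of endothelium and other cells, was the only one to pass 1.5-fold. Its intensity was 1216 with cocaine and 741 in the control, a log2 ratio of 0.71. The catenins that tie VE-cadherin to the cytoskeleton differed little, with Ctnnb1 at -0.02, Ctnnd1 at -0.15 and Jup at 0.18.

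Among the 9 VEGF ligands and receptors around Kdr, 3 had higher and 6 lower values (median log2 ratio -0.06) and 0 past 1.5-fold. The widest differences were those of the coreceptors, Nrp2 at 5659 against 3950 (log2 ratio 0.52) and Nrp1 at 1845 against 2176 (-0.24). Vegfa, the main ligand of Kdr, had -0.23, and Flt1, which encodes VEGF receptor 1, had 0.17. Of the TIE system around Tek, 2 of 4 measured genes were brighter with cocaine and 2 dimmer. The list's median log2 ratio of 0.05 became -0.05 with a floor at the 25th percentile and -0.01 with one at the background limit. The receptor partner Tie1 had a log2 ratio of 0.14 and the ligand Angpt1 one of -0.08, while Angpt4 stayed below the background limit in both samples.

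Among 14 genes of nitric oxide and cGMP signalling around Nos3, 9 had higher and 5 lower values (median log2 ratio 0.10). Gch1, the first enzyme in the synthesis of the cofactor that nitric oxide synthases need, stood at 501.0 with cocaine and 314.2 in the control, 1.59-fold higher. Ddah2, which breaks down an endogenous inhibitor of these enzymes, stood at 439.4 against 287.6, 1.53-fold higher (1.48-fold after quantile normalization and 1.49-fold under loess), whereas its relative Ddah1 had a log2 ratio of -0.34. Nostrin, which traffics the Nos3 protein inside the cell, was lower, at 18151 against 25135 (-0.47). Cav1, which encodes caveolin-1 and binds it in caveolae, had 0.05, with the opposite sign (-0.0095) after quantile normalization. The neuronal and inducible synthase genes Nos1 and Nos2 stayed below the background limit in both samples. Downstream of nitric oxide, the guanylate cyclase subunits Gucy1a1 and Gucy1b1 had 0.14 and 0.06 (the latter -0.02 under loess), the cGMP phosphodiesterase gene Pde5a 0.33 and the cGMP kinase gene Prkg1 0.28. The genes of this pathway therefore went both ways, including those that act on the Nos3 protein.

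The endothelin genes were mostly higher, with 4 of 5 higher and a median of 0.30, although with a floor at the background limit 3 were higher and the median was 0.09 (0.20 with the other floor). Of the 5 genes, 3 exceeded the background limit in both samples. Edn1, the endothelin made by endothelium, stood at 1445 with cocaine and 937 in the control, 1.54-fold higher (1.46-fold after quantile normalization or loess). Ece1, the enzyme that activates it, had a log2 ratio of 0.35. Of 9 genes of the renin-angiotensin and kinin system around Ace, 2 had higher and 7 lower values (median log2 ratio -0.11). Agtr1b, an angiotensin receptor gene, was the only one past 1.5-fold, at 49.9 against 32.9, and lay under the background limit in both samples. Only 4 exceeded the limit in both samples, among them the peptidase gene Mme at -0.12 and the kinin receptor gene Bdkrb1 at -0.28, and the angiotensin receptor gene Agtr1a stood at 2839 and 2841.

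Of 6 relatives and partners of Car4, 3 exceeded the limit in both samples, and the list's median of 0.27 turned to -0.10 with a floor at the 25th percentile. That value is the difference between the floors of the arrays, which genes under the floor on both arrays take. The bicarbonate carrier genes Slc4a4 and Slc4a7 had log2 ratios of 0.37 and 0.47, next to 0.49 for Car4 itself. Car6, a secreted carbonic anhydrase, was 1.64-fold lower, at 147.8 against 242.0, and the membrane forms Car9, Car12 and Car14 were below the limit in both samples. Among 11 haemostasis genes around Vwf, 7 had higher and 4 lower values (median log2 ratio 0.03, or -0.02 after quantile normalization). Procr, the endothelial protein C receptor, was 1.72-fold higher at 293.5 against 170.3, whereas thrombomodulin (Thbd), which works with it, had -0.06 and the clotting factor gene F8 0.03, or -0.02 after quantile normalization.

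Of 17 endothelial transcription factor genes, 8 had higher and 9 lower values (median log2 ratio -0.01, or 0.06 after quantile normalization). Ets2, a factor found in many cell types, was the only one past 1.5-fold, at 5076 with cocaine against 3130. The ETS factors Erg and Fli1, which maintain endothelial identity, had -0.28 and -0.18, and Sox17, a factor of arteries, had -0.45. Epas1, the hypoxia factor HIF-2 alpha that is abundant in endothelium, was nearly equal at 412030 and 414245, though 0.14 on the log2 scale after quantile normalization.

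Capillary markers other than the members were also divided. Of 9 measured markers of the lung aerocyte, the thin gas-exchange capillary cell of the alveolus, 4 had higher and 5 lower values (median log2 ratio -0.08). Apln, which encodes the peptide apelin, was the only one past 1.5-fold, at 1408 with cocaine against 767 (log2 ratio 0.88), while its receptor gene Aplnr, a marker of general capillary cells, had 0.14. Of 8 general capillary markers, 6 had higher and 2 lower values (median log2 ratio 0.13) and 0 past 1.5-fold. Gpihbp1, which holds lipoprotein lipase on capillaries, had 0.50 and Plvap, a protein of endothelial pores, 0.31. Of 9 measured markers of heart capillaries and endocardium, 6 had higher and 3 lower values (median log2 ratio 0.35). Fabp4, a fatty acid carrier shared with adipocytes and macrophages, was 2.95-fold higher, at 693.6 against 235.0, and Npr3, a natriuretic peptide receptor of endocardium and other cells, was 2.30-fold higher, at 3618 against 1573. The heart capillary factors Tcf15 and Meox1 were below the background limit in both samples.

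**Figure D4:**
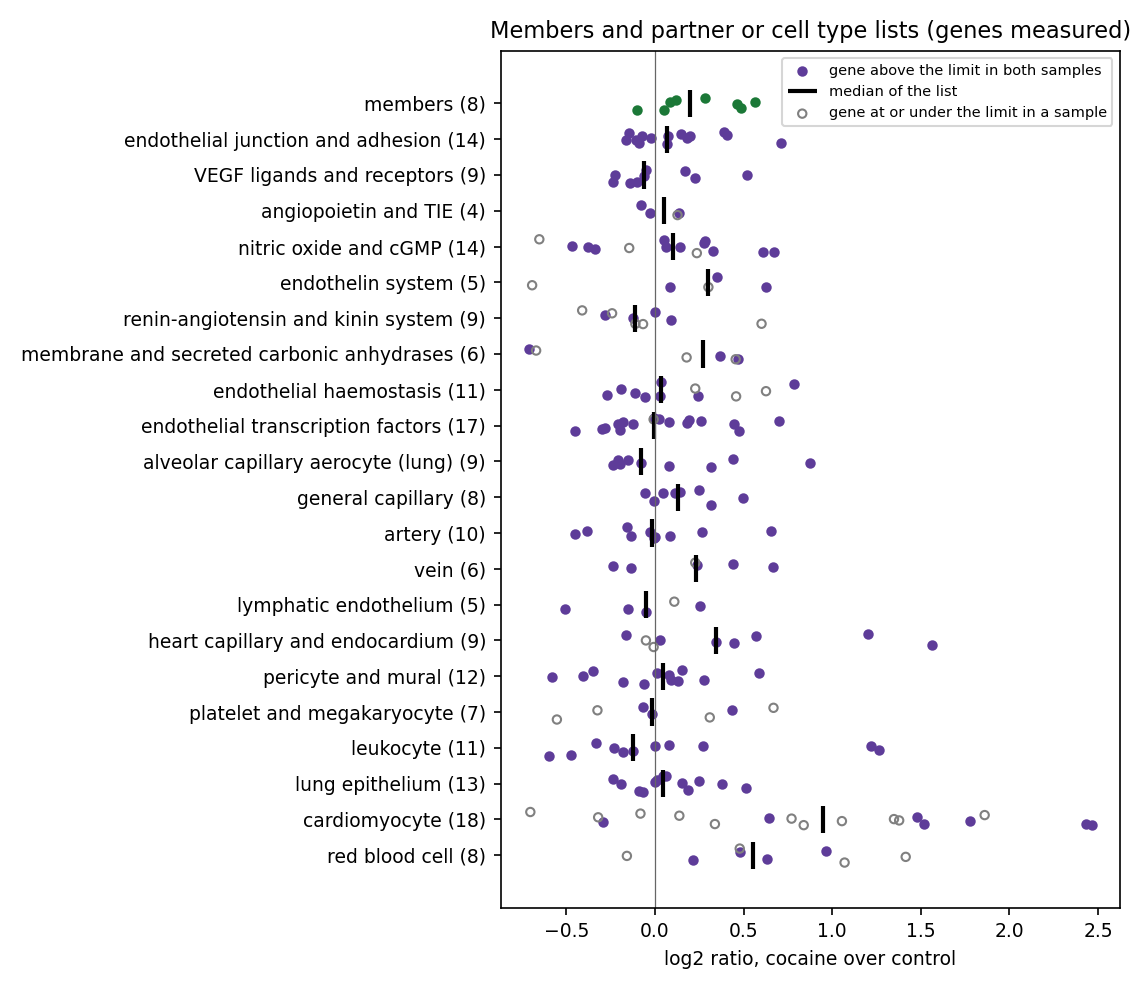
The log2 ratio of cocaine over control of each measured gene in the 8 members (green) and in 21 partner or cell type lists (purple), with genes at or under the background limit in at least 1 sample as open circles and the median of each list as a black bar. The medians of the partner lists lie between -0.11 and 0.30, and the cardiomyocyte list (0.95), the red blood cell list (0.56) and the heart capillary list (0.35) lie farthest to the right.

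Markers of other cells differed between the arrays as well. Red blood cell genes were higher in 7 of 8 cases, with a median log2 ratio of 0.56 and a summed intensity of 480729 with cocaine against 374767 in the control. The heme synthesis gene Alas2 (0.63), the band 3 gene Slc4a1 (1.41) and the haemoglobin gene Hba-a3 (0.96) were past 1.5-fold, Alas2 not after quantile normalization or loess, and Slc4a1 not with a floor at the background limit. Cardiomyocyte genes were higher in 14 of 18 cases, with a median of 0.95 and a sum of 43197 against 29009, although only 7 of them exceeded the background limit in both samples. The cardiac troponin gene Tnnt2 stood at 456.9 against 82.8 and the myoglobin gene Mb at 398.3 against 73.9. Also past 1.5-fold upward were Tnni3, Actc1, Ryr2, Pln, Nppa, Actn2, Csrp3, Atp2a2, Casq2 and Ldb3, with log2 ratios from 0.64 to 1.86, and downward Ckm at -0.70. Of these, Ryr2, Nppa, Casq2, Ldb3 and Ckm were not past it with a floor at the background limit. Over all named genes 52.4% were higher with cocaine. With the brighter value above the limit, 3.38% of them were past 1.5-fold upward and 2.43% downward. Atp2a2 made up 66.4% of the cocaine sum, and without it the sums were 14526 and 10665. The 13 lung epithelium genes had a median of 0.04 and a nearly equal sum of 3336490 against 3362330, with the widest differences in Aqp5 (0.51) and Sftpd (0.38). Sftpc made up 30.0% of the cocaine sum and had the same value in both samples, the highest of each array. Without it the sums were 2336520 and 2362360. The part of these cells in the ratios of Pecam1, Car4, Vwf and Nos3 was not tested.

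Platelets and leukocytes, which also carry Pecam1 protein (and, for platelets, von Willebrand factor), gave no common direction. Of 7 measured platelet genes, 3 had higher and 4 lower values (median log2 ratio -0.01) and a sum of 1507 against 1511. The platelet chemokine genes differed in direction, with Pf4 at 741.7 with cocaine and 778.1 in the control and Ppbp at 160.7 and 119.0, a log2 ratio of 0.43, while the glycoprotein genes Gp1ba, Gp9 and Gp5 were below the background limit in both samples. Of 11 leukocyte genes, 4 were higher, 6 lower and 1 equal, with a median of -0.13. Their sum was 94.7% Lyz2, whose value was the same on both arrays, and without it the sums were 41695 and 44507. Ptprc, the common leukocyte antigen CD45, had -0.13, whereas the neutrophil genes S100a8 and S100a9 had 1.27 and 1.22. Itgam, the integrin CD11b of myeloid cells, was 1.51-fold lower, at 100.4 against 152.0, a log2 ratio of -0.60 (-0.58 and just short of 1.5-fold under loess). The part of platelets and leukocytes in the Pecam1 and Vwf ratios was not tested either.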

How the data were processed

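The series holds 1 array per condition. Before deposit, the authors reduced each array to a normalized intensity per probe set, which is linear and not logged. MAS5 is the tool named in the submitters' notes, whereas the study's methods mention Transcriptome Analysis Console software. Version, genome build and scaling between arrays: not given in the sources used here. Of 24834 probe sets, 15049 had a single gene symbol. Intensities were converted to log2 without a pseudocount, 10 genes with several probe sets were averaged, and the control value was subtracted from the cocaine value to give the log2 ratio. No test was possible with 1 array per group, whose number limits the precision.

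Genes, lists and settings were chosen with earlier results of these data known. Named were all 8 measured members and, in each list, the genes past 1.5-fold whose brighter value exceeded the background limit, or otherwise the 2 widest differences among genes exceeding it in both samples. Defining markers and other genes (ligands, receptors, subunits) were named for their role after their values had been seen. Alternatives were median centring, quantile normalization, loess (span 0.3), floors at the 25th percentile or the background limit, and the highest probe set. The scalings were run on simulated arrays with planted differences far larger than those of the members. The floors, the background limit and the list counts were not tested in this way. Python 3.11.15, numpy 2.4.6, pandas 2.3.3, statsmodels 0.14.6 and matplotlib 3.10.9 were used.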

Additional observations from a re-analysis of the deposited data

How the results depend on the processing

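With the threshold lowered from 1.5-fold to a log2 ratio of 0.32, 3 of the 8 measured members passed in place of 0, all 3 upward. Of all named genes 17.6% passed this threshold upward and 16% downward, and of the brightest class 16.9% passed it upward. Under the 6 other settings the count at 1.5-fold and at 2-fold was 0. The median log2 ratio of the members was 0.14 with loess, 0.16 with quantile normalization and 0.18 with centred arrays. It was 0.20 with both floors and the highest probe set, which could not change the values of the members. The median of all named genes was 0.02, or 0.0030 to 0.0071 with the 3 scalings, and -0.08 with a floor at the 25th percentile, a shift of over 0.1 on the log2 scale. Nos3 is the gene whose detection depends on the limit. All 8 members were above the median of the receptor genes on both arrays, and 7 were above their 99th percentile, or above the 75th percentile of 1153 intronic control probe sets, a limit added after the data were seen. Among the cell type and partner lists, the median of the carbonic anhydrase relatives turned from 0.27 to -0.10 with a floor at the 25th percentile. The median of the cardiomyocyte list moved from 0.95 to 0.53 with a floor at the background limit, and to 1.52 over the genes above the limit in both samples, a choice also made after the data were seen. Genes under the 25th percentile on both arrays all take -0.10, the difference between the floors of the arrays. This value is the median of the carbonic anhydrase relatives there, and it also lowers the median of all named genes. The floor at the background limit narrows the ratios of dim cardiomyocyte genes. No further cause of these shifts was tested. No paired analysis was possible because each condition has 1 array.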

Other observations

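Vessel segments and the cells around them were described with further lists, and each of these lists held values in both directions. Of 10 arterial markers, 4 had higher and 6 lower values with cocaine (median log2 ratio -0.02). Bmx, a kinase of arterial endothelium, stood at 140.4 against 89.2 and was 1.57-fold higher. Of 6 genes listed as venous markers, 4 had higher and 2 lower values (median log2 ratio 0.23). The list was not specific to veins, since Car8 (0.44) was also counted with the lung aerocyte markers and Bgn (-0.24) encodes a matrix protein. Vcam1, an adhesion molecule that endothelium displays to leukocytes, stood at 3415 against 2156, 1.58-fold higher (1.49-fold under loess), while the selectin genes Selp and Sele, which also bind leukocytes, were below the background limit in both samples. Of 5 lymphatic markers, 2 were higher and 3 lower. Lyve1, a hyaluronan receptor of lymphatic vessels and some macrophages, had 0.25, Reln had -0.50, and the lymphatic factor Prox1 was below the limit in both samples.

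Of 12 pericyte and smooth muscle genes, 7 had higher and 5 lower values (median log2 ratio 0.05, or -0.0096 under loess and -0.0020 after quantile normalization). Rgs5, a regulator of G protein signalling in pericytes, stood at 5190 against 3451, a log2 ratio of 0.59, just past 1.5-fold but not with centred arrays (0.57), quantile normalization (0.52) or loess (0.51), whereas the pericyte genes Pdgfrb, Abcc9 and Notch3 had -0.40, -0.58 and -0.35. The smooth muscle genes Acta2 and Myh11 had 0.08 and 0.01, the latter -0.06 under loess and quantile normalization and -0.0082 with centred arrays.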
